A study of Mus musculus with 8 samples.

Results

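The 68 genes described here lie on mouse chromosome 14 and come from a table of 622 genes that differed between Runx1 knockout and wild-type hemogenic endothelium. They are all rows of the table whose Ensembl gene ID is on chromosome 14 in GENCODE M21 (GRCm38 assembly), which gives 73 rows, less 5 genes that were left out (Gata4, Nefl, Ptk2b, Bmp4 and Plau). Of the 68 genes, 64 were protein-coding and 4 were small nucleolar RNAs (snoRNAs). The ID of 10 rows of the table was not in the annotation, so these rows were not placed on any chromosome.

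The cells were derived in culture from mouse embryonic stem cells of strain 129. FLK1+ cells were isolated from early embryoid bodies, grown for 2 days in blast culture, and sorted for cKIT and TIE2 without CD41. The knockout (ko) group comprised 4 libraries, 2 of iDamko, which is the iDam line with Runx1 deleted on both alleles, and 2 of Ainv18ko, a Runx1-/- derivative of the Ainv18 line. The wild-type (wt) groups were the iDam line and the BryGFP line with 2 libraries each. The study's design calls the 2 libraries of a line biological duplicates, and no source used here says whether a line is a single clone.

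Hemogenic endothelium is the transient endothelial population from which blood cells emerge, and RUNX1 is the transcription factor that this transition requires. The 68 genes share a chromosome and not a pathway. They include proteasome subunits, mitochondrial enzymes, chromatin regulators and cohesin regulators that most dividing cells express, beside a few genes restricted to particular tissues. RNA from a sorted population was measured, so fewer cells of a type and less RNA per cell cannot be told apart, and no DNA measurement was analysed here.

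Expression is given as RPKM, in which reads are scaled to gene length and sequencing depth. Whole-read steps among small RNAs implied 22240000 to 53100000 reads in 6 libraries, and both iDamko libraries had too few low values for an estimate. The values of Runx1 and of the sorted surface proteins' genes Kit, Tek and Itga2b are not analysed here, so genotype and gate rest on the labels. Of 15 erythroid markers, 4 were in the table and all 4 were higher in ko, with summed values of 139 to 170 RPKM in ko libraries, 50.7 to 51.7 RPKM in iDam and 61.6 to 71.4 RPKM in BryGFP. Of 13 endothelial markers, 3 were in the table and all 3 were lower in ko, with summed values of 10.3 to 14.6 RPKM in ko libraries, 69.2 to 78.7 RPKM in iDam and 22.4 to 27.7 RPKM in BryGFP. Of 6 smooth muscle markers, 2 were in the table and both were lower in ko (18.7 to 74.2 RPKM in ko libraries, 123 to 138 RPKM in iDam and 457 to 648 RPKM in BryGFP). Of 8 cardiac markers other than Gata4, 3 were in the table, Hand1, Hand2 and Tnnt2, with 2 higher and 1 lower in ko and summed values of 38.3 to 55.6 RPKM in ko libraries, 15.6 to 29.4 RPKM in iDam and 36.3 to 38.9 RPKM in BryGFP. Of 5 neural markers other than Nefl, Tubb3 alone was in the table, at 29.1 to 85.3 RPKM in ko libraries, 1.82 to 2.09 RPKM in iDam and 15.04 to 18.1 RPKM in BryGFP. Of 5 pluripotency markers, Dppa4 alone was in the table, at 1.32 to 3.21 RPKM in ko libraries, 5.84 to 8.56 RPKM in iDam and 7.24 to 11.7 RPKM in BryGFP. The part of these markers in the chromosome 14 values was not tested.

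Of the 68 genes, 66 were higher and 2 were lower in ko cells, in both comparisons. The 4 ko libraries lay above both iDam libraries in 66 genes (97.1%) and above both BryGFP libraries in the same number, where 37.8% of all genes of the table did so in each comparison. The authors' deposited table gave every one of its 622 genes (100%) an FDR under 0.05 in both comparisons, so these counts restate how the table was assembled. Among the chromosome 14 genes the authors' deposited table reached FDRs of up to 0.0443 for iDam and up to 0.0472 for BryGFP. Both comparisons use the same 4 ko libraries and are not independent of each other. With limma and Benjamini-Hochberg adjustment over the 360 genes that averaged 1 RPKM or more, 62 of 62 tested chromosome 14 genes passed for ko against iDam (99.7% of all genes tested) and 60 of 62 for ko against BryGFP (99.2% of all genes tested). The 6 remaining genes were below that mean and were not tested.

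The size of the ko difference was modest and narrow against BryGFP and wider against iDam. The median ratio of mean RPKM over the 68 genes was 1.82 for ko/BryGFP, with quartiles of 1.66 and 2.16, and 2.47 for ko/iDam, with quartiles of 1.75 and 3.35. Among the genes higher in ko, 45 of 65 (69.2%) had a ko/BryGFP ratio between 1.5 and 2, and 24 of 66 (36.4%) had a ko/iDam ratio in that range. For the other genes of the table higher in ko, rows that were not placed included, the corresponding shares were 11.7% and 14.8%. Their median ratios were 3.15 for ko/BryGFP and 3.59 for ko/iDam, against 1.83 and 2.54 for the chromosome 14 genes higher in ko. Among genes higher in ko that averaged 1 RPKM or more, the ko/iDam medians were close, at 2.42 on chromosome 14 and 2.49 for the others. The ko/BryGFP medians of these genes were 1.81 and 2.60. Every gene of the table had passed the authors' FDR threshold, and the lowest ko/BryGFP ratio of a gene higher in ko was 1.56 on chromosome 14 and 1.63 among those other genes. On each of 16 other chromosomes with at least 5 genes higher in ko, the median ko/BryGFP ratio was above that of chromosome 14 and ran between 2.22 on chromosome 5 and 5.44 on chromosome X. Their ko/iDam medians ran from 2.56 on chromosome 11 to 5.80 on chromosome 13, the lowest close to the 2.54 of chromosome 14. Genes averaging under 1 RPKM were kept in these medians.

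**Figure D1:**
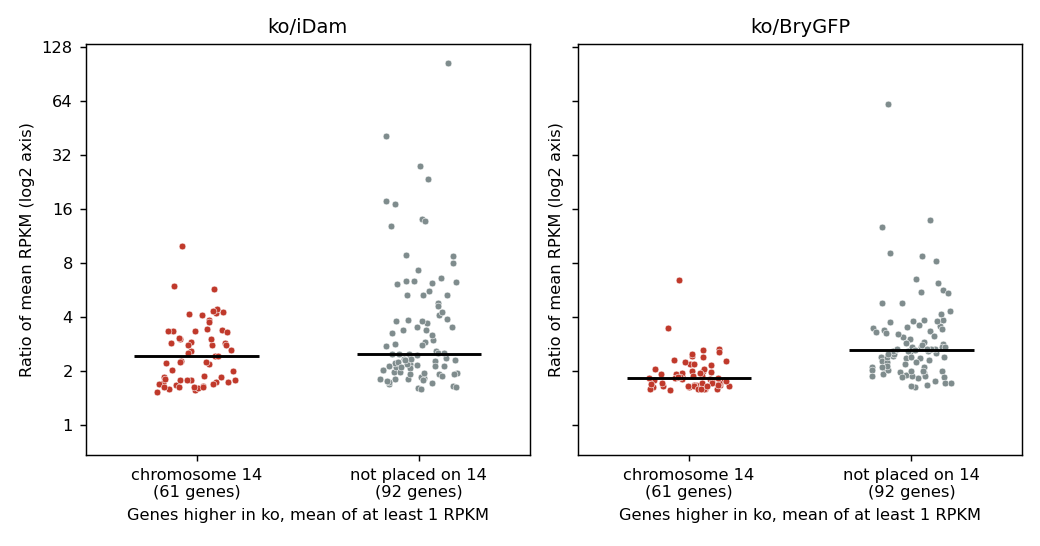
Ratio of mean RPKM for genes higher in ko with a mean of at least 1 RPKM, as ko/iDam (left) and ko/BryGFP (right), on log2 axes. Each point is a gene and horizontal bars are medians. A ko/BryGFP ratio between 1.5 and 2 was found for 73.8% of the 61 chromosome 14 genes. It was found for 20.7% of the 92 other genes of the table, which include rows not placed on a chromosome. For ko/iDam these shares were 39.3% and 23.9%, and the medians were 2.42 and 2.49.

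Over the first 80 megabases (Mb) of the chromosome, the median ko/BryGFP ratio stayed near the same level while the median ko/iDam ratio was higher over 1 stretch. In consecutive windows of 10 Mb up to 60 Mb, the median ko/iDam ratio was 1.70 to 2.02 and the median ko/BryGFP ratio was 1.75 to 2.12. In the windows from 60 to 70 Mb and from 70 to 80 Mb, the median ko/iDam ratio was 3.58 and 3.04, while the median ko/BryGFP ratio was 1.89 and 1.81. The median iDam/BryGFP ratio was 0.899 to 1.10 in the first 6 windows, and 0.511 and 0.579 in these 2 windows. Past 80 Mb the genes of the table were few and their ratios differed: the medians for ko/iDam and ko/BryGFP were 2.80 and 24.4 for 1 gene from 90 to 100 Mb, 2.63 and 3.98 for 1 gene from 110 to 120 Mb, and 2.86 and 2.53 for 3 genes from 120 to 130 Mb. Between 100 and 110 Mb lay Irg1, which has no ko/BryGFP ratio, and Spry2, which was lower in ko. The stretch with low iDam values ran from Mipep to Mtrf1 (chr14:60784573-79423587, GRCm38), a span of 18639015 bases that holds 24 of the 68 genes. Its ends were set after these ratios had been seen, so values inside and outside it are a description.

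**Figure D2:**
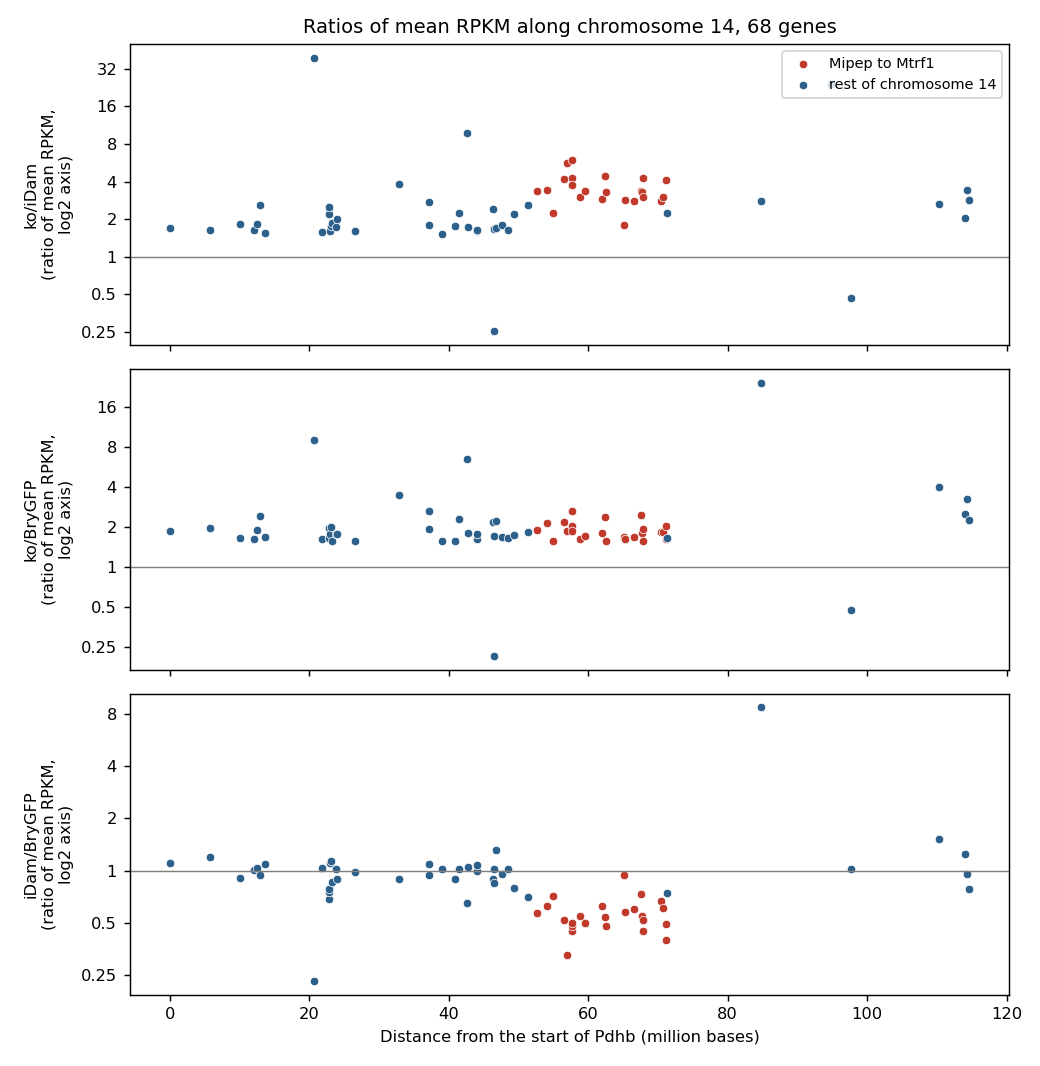
Ratios of mean RPKM for the 68 genes by distance from the start of Pdhb, as ko/iDam (top), ko/BryGFP (middle) and iDam/BryGFP (bottom), on log2 axes, with 1 point per gene and the genes of the Mipep to Mtrf1 stretch in red. Irg1, listed at 0 in both BryGFP libraries, has a point in the top panel alone, and the red genes stand at a median of 0.542 in the bottom panel, against 0.998 for the other genes higher in ko.

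All 24 genes of the stretch, with the 5 genes left out by rule not counted, were higher in ko than in either wt line. Their median iDam/BryGFP ratio was 0.542, with quartiles of 0.487 and 0.611 and a range of 0.327 to 0.945. Over all 68 genes the median was 0.855, with quartiles of 0.590 and 1.02. The other 42 genes higher in ko had a median of 0.998 over the 41 genes with a ratio, with quartiles of 0.894 and 1.08. With each library centred on the genes off chromosome 14, the median iDam/BryGFP ratio was 0.673 inside the stretch, 1.26 outside it and 1.07 over all 68 genes, so the side of 1 on which the last value falls depends on the scaling. The median ko/iDam ratio was 3.35 inside the stretch and 1.85 outside it, and the median ko/BryGFP ratio was 1.84 inside and 1.80 outside. Both iDam libraries lay below both BryGFP libraries in 23 of the 24 genes, Itm2b being the exception. Outside the stretch, iDam lay below BryGFP in 9 of 44 genes and above it in 8. Over all 68 genes these counts came to 32 below (47.1%) and 8 above (11.8%), where 34.2% and 21.9% of all genes of the table did so.

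Before the stretch, the nuclear export receptor gene Xpo4 had an iDam/BryGFP ratio of 0.796 and Cdadc1, a cytidine deaminase family gene, had 0.704. The first gene inside, Mipep, which encodes a mitochondrial presequence peptidase, had 0.573. Further inside, the ribonuclease H2 subunit gene Rnaseh2b had 0.627 and Ctsb, the gene of the lysosomal protease cathepsin B, had 0.712, above the value of Cdadc1. The last gene inside, Mtrf1, of the mitochondrial release factor family, had 0.490, and Elf1, an ETS transcription factor gene 57606 bases after it, had 0.745. The next gene of the table, Pcdh9, lay 13430915 bases further on.

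Library by library, both iDam libraries carried the low values of the stretch. Set against the BryGFP mean of each gene, the median over the 24 genes was 1.71 and 1.95 in iDamko, 1.65 and 2.01 in Ainv18ko, 0.504 and 0.571 in iDam, and 0.964 and 1.04 in BryGFP. Outside the stretch, the median was 1.55 and 2.06 in iDamko, 1.62 and 2.10 in Ainv18ko, 0.903 and 1.07 in iDam, and 0.970 and 1.03 in BryGFP. The second library of each ko line was the higher one both inside and outside the stretch. Over the 61 chromosome 14 genes higher in ko with a mean of at least 1 RPKM, the second library stood at a median of 1.22 times the first in iDamko and 1.296 times the first in Ainv18ko, against 1.05 and 1.17 times for the 92 other such genes of the table. In the wt lines the chromosome 14 medians were 1.14 in iDam and 1.07 in BryGFP, against 1.00 and 0.945 for the other genes.

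**Figure D3:**
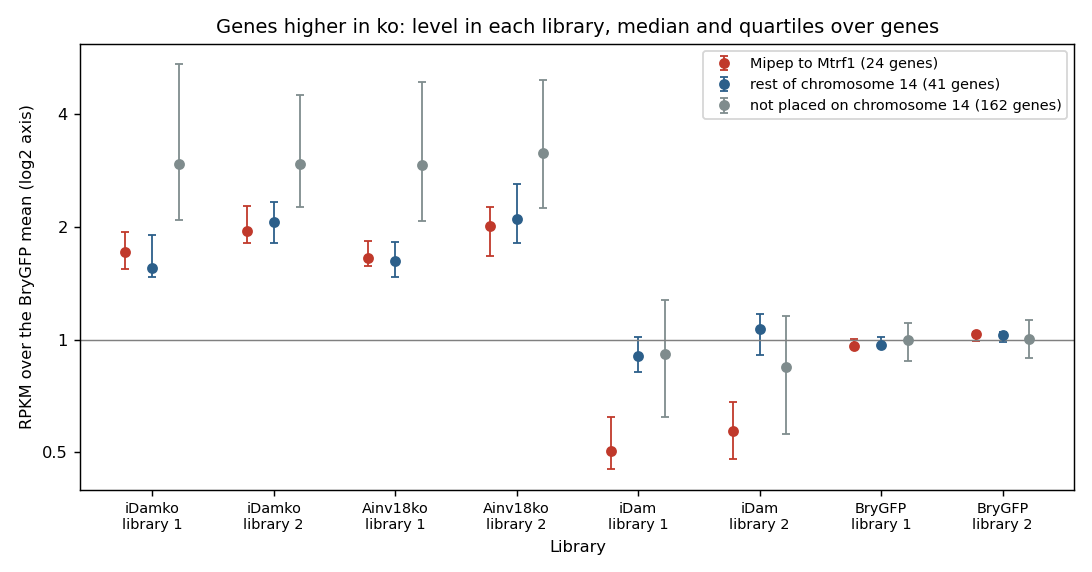
RPKM over the BryGFP mean of the gene in each of the 8 libraries, on a log2 axis, as the median (point) and quartiles (bar) over genes higher in ko. Inside the Mipep to Mtrf1 stretch (red) the iDam libraries stand at 0.504 and 0.571, while the other chromosome 14 genes (blue) stand at 0.903 and 1.07.

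The comparison of the wt lines was not itself the basis of the table, although each gene had to differ from ko in both. With limma and Benjamini-Hochberg adjustment over 360 genes, 11 of 62 chromosome 14 genes (17.7%) passed for iDam against BryGFP, all 11 of them lower in iDam. Over all genes tested, 25.3% passed, 19.2% lower in iDam, so the chromosome as a whole did not exceed the table. The ends of the Mipep to Mtrf1 stretch were set after the iDam/BryGFP ratios had been seen. Counts for this contrast inside and outside it are therefore a description and not a test of the stretch. All 11 called genes lay inside the stretch. Of the 24 genes tested there, 20 had an unadjusted limma p under 0.05 (34.7% of all genes tested had). Of the 38 genes tested outside it, 0 passed with limma and 0 had an unadjusted p under 0.05. The count depends on single wt libraries and on scaling: it was 5 without iDam library 1, 4 without iDam library 2, 4 without BryGFP library 1 and 4 without BryGFP library 2, and 3 when each library was centred on the genes off chromosome 14. Fzd3, Pbk and Naa16 were called under every alternative that was run.

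Pbk encodes a kinase active in mitosis. It was at 39.4 and 45.8 RPKM in iDamko, 34.0 and 42.4 RPKM in Ainv18ko, 6.89 and 6.78 RPKM in iDam, and 16.5 and 14.01 RPKM in BryGFP. The 3 levels did not overlap, with iDam lowest and both ko lines highest. The log2 difference was 2.39 ± 0.18 (SE) for ko against iDam (limma adjusted p = 5.04e-06), 1.35 ± 0.18 for ko against BryGFP (limma adjusted p = 0.000137) and -1.05 ± 0.21 for iDam against BryGFP (limma adjusted p = 0.00698), on the log2(RPKM + 1) scale.

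Fzd3, a Wnt receptor gene, was at 3.86 and 4.58 RPKM in iDamko, 4.32 and 3.91 RPKM in Ainv18ko, 0.785 and 0.681 RPKM in iDam, and 2.17 and 2.31 RPKM in BryGFP. Its iDam/BryGFP ratio of 0.327 was the lowest of the stretch (log2 difference -0.90 ± 0.18 SE, limma adjusted p = 0.00750). Naa16, which encodes an auxiliary subunit of an N-terminal acetyltransferase, was at 6.96 and 6.46 RPKM in iDamko, 6.47 and 6.26 RPKM in Ainv18ko, 1.63 and 1.56 RPKM in iDam, and 3.74 and 4.22 RPKM in BryGFP. It fell by 0.94 ± 0.18 (SE) in iDam against BryGFP on that log2 scale (limma adjusted p = 0.00629). Both genes were lowest in iDam and highest in ko, with no overlap between these levels.

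The gene beside Pbk behaved likewise. Esco2, the gene of an acetyltransferase that establishes sister chromatid cohesion, lies on the opposite strand with its end 1215 bases from that of Pbk. It was at 9.17 and 11.5 RPKM in iDamko, 8.08 and 10.0 RPKM in Ainv18ko, 2.02 and 2.53 RPKM in iDam, and 4.97 and 4.58 RPKM in BryGFP (iDam against BryGFP, log2 difference -0.82 ± 0.21 SE, limma adjusted p = 0.0181). Ccdc25, Bnip3l, Dock5, Xpo7, 1200011I18Rik, SNORA36 and SNORA5 made up the rest of the 11, with iDam/BryGFP ratios between 0.448 and 0.545. Itm2b, an integral membrane protein gene in the middle of the stretch, stood apart at 73.4 and 87.5 RPKM in iDamko, 76.4 and 90.7 RPKM in Ainv18ko, 43.4 and 47.7 RPKM in iDam, and 46.3 and 50.03 RPKM in BryGFP. Its wt lines overlapped, with an iDam/BryGFP ratio of 0.945 (limma adjusted p = 0.879), and under quantile normalization its iDam value was the higher one.

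**Figure D4:**
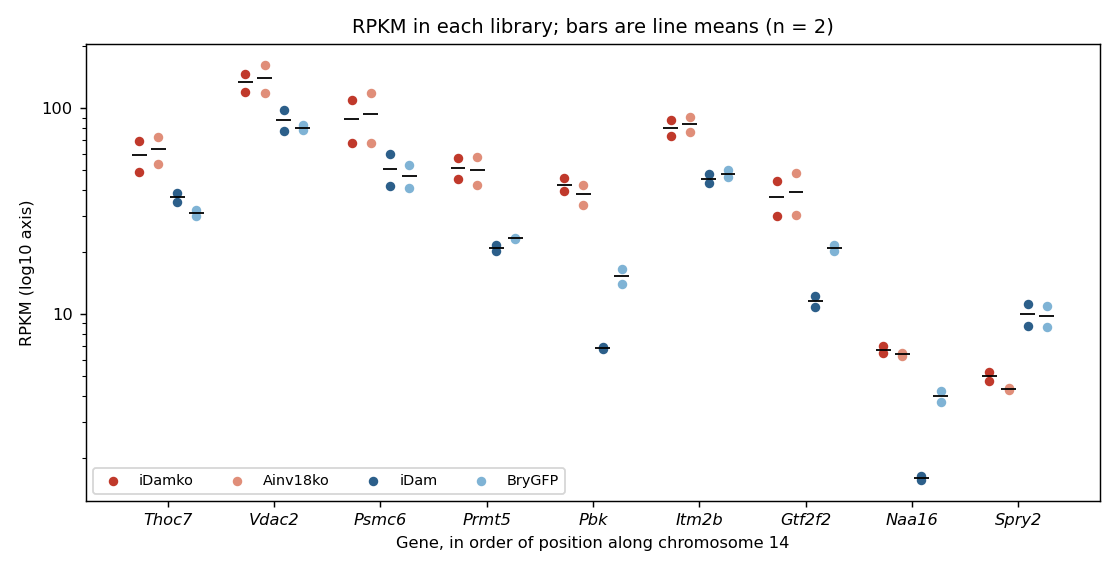
RPKM of 9 chromosome 14 genes in each library on a log10 axis, in order of position, with 1 point per library and bars at the mean of each line (n = 2). Pbk, Gtf2f2 and Naa16 were lower in iDam than in BryGFP, the wt lines lay close together for Vdac2, Psmc6 and Itm2b, and Spry2 alone was lower in ko.

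Grouped by function, no group departed from the direction of the chromosome except through the 2 genes lower in ko. The 8 genes of cell cycle, DNA replication and repair were all higher in ko, with a median ratio of 2.57 for ko/iDam and 1.92 for ko/BryGFP, and 3 of them lay in the Mipep to Mtrf1 stretch. Outside it, Apex1, the main endonuclease for abasic sites in DNA, was at 109 and 117 RPKM in iDamko, 106 and 116 RPKM in Ainv18ko, 63.1 and 67.2 RPKM in iDam, and 66.7 and 57.8 RPKM in BryGFP. Wapal, which releases cohesin from chromosomes, averaged 61.9 ± 6.65 RPKM in ko (SD, n = 4), 38.4 ± 2.79 in iDam and 39.0 ± 2.47 in BryGFP (SD, n = 2 each). Wdhd1, a replication fork protein gene, had the smallest ko ratios of the 66 genes higher in ko, 1.53 for ko/iDam and 1.56 for ko/BryGFP. Ccnb1ip1, whose product acts in meiotic recombination, was low in all libraries, at 1.93 and 3.252 RPKM in iDamko, 1.46 and 1.82 RPKM in Ainv18ko, 0.162 and 0.267 RPKM in iDam, and 0.209 and 0.447 RPKM in BryGFP.

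The 10 genes of transcription and chromatin were all higher in ko, with a median ratio of 2.05 for ko/iDam and 1.67 for ko/BryGFP. None of the 9 tested passed for iDam against BryGFP, where 17.7% of chromosome 14 genes and 25.3% of all genes tested did. Of the 10 genes, 2 lie in the stretch, which held every chromosome 14 call of that comparison. Prmt5, the major enzyme of symmetric arginine dimethylation, was at 45.4 and 57.3 RPKM in iDamko, 42.6 and 57.9 RPKM in Ainv18ko, 20.2 and 21.6 RPKM in iDam, and 23.3 and 23.4 RPKM in BryGFP. Its ko/iDam ratio of 2.43 and its ko/BryGFP ratio of 2.18 were the highest of this group outside the stretch except those of Zic5, a zinc finger gene below 1 RPKM throughout. Supt16h, a subunit of the histone chaperone FACT, averaged 117 ± 24.2 RPKM in ko (SD, n = 4), 71.9 ± 4.05 in iDam and 72.0 ± 5.51 in BryGFP (SD, n = 2 each). Actr8, of the INO80 remodelling complex, had ratios of 1.58 for ko/iDam and 1.62 for ko/BryGFP, and Mphosph8, of the HUSH silencing complex, had 1.63 and 1.66. Phf7 had the highest iDam/BryGFP ratio of this group, 1.13 (limma adjusted p = 0.717). In the stretch, the Mediator subunit gene Med4 and the TFIIF subunit gene Gtf2f2 had iDam/BryGFP ratios of 0.579 and 0.550 (limma adjusted p = 0.0604 and 0.0605).

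The 7 genes of RNA processing and translation were higher in ko, with a median ratio of 1.73 for ko/iDam and 1.77 for ko/BryGFP. Gnl3, which encodes the nucleolar protein nucleostemin, was at 82.5 and 113 RPKM in iDamko, 77.3 and 103 RPKM in Ainv18ko, 33.3 and 44.5 RPKM in iDam, and 53.7 and 59.9 RPKM in BryGFP. Thoc7, a subunit of the THO complex that couples transcription to mRNA export, averaged 61.3 ± 11.5 RPKM in ko (SD, n = 4), 37.0 ± 2.53 in iDam and 31.0 ± 1.36 in BryGFP (SD, n = 2 each), and both iDam libraries lay above both BryGFP libraries. Mettl3, the catalytic subunit of the m6A RNA methyltransferase, had ratios of 1.63 for ko/iDam and 1.77 for ko/BryGFP. Ngdn had the highest iDam/BryGFP ratio of the chromosome 14 genes averaging 1 RPKM or more, 1.32 (limma adjusted p = 0.405). Dph3 and Oxnad1 start head to head with 356 bases in common, so reads from the shared bases cannot be assigned to either gene unless the counting used strand, which no source used here gives.

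The 5 genes of protein turnover and folding were higher in ko, with a median ratio of 1.84 for ko/iDam and 1.71 for ko/BryGFP. Psmc6, an ATPase subunit of the proteasome's regulatory particle, was at 67.5 and 109 RPKM in iDamko, 67.97 and 119 RPKM in Ainv18ko, 42.1 and 59.8 RPKM in iDam, and 41.04 and 52.8 RPKM in BryGFP. Psmb5, a catalytic subunit of the proteasome core, averaged 70.7 ± 12.2 RPKM in ko (SD, n = 4), 42.2 ± 7.10 in iDam and 41.3 ± 2.99 in BryGFP (SD, n = 2 each). Ero1l, an oxidase of the endoplasmic reticulum that drives disulfide formation, had the largest ratios of the group, 2.77 for ko/iDam and 2.62 for ko/BryGFP, and its replicates were close together (25.2 ± 2.12 RPKM in ko, 9.08 ± 0.316 in iDam and 9.59 ± 0.446 in BryGFP).

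Mitochondrial and metabolic genes formed the largest group, with 14 genes, all higher in ko, and a median ratio of 2.93 for ko/iDam and 1.92 for ko/BryGFP. Vdac2, a channel of the outer mitochondrial membrane, averaged 137 ± 21.7 RPKM in ko (SD, n = 4), 87.8 ± 14.5 in iDam and 80.6 ± 3.40 in BryGFP (SD, n = 2 each). Adk, the kinase that converts adenosine to AMP, was at 92.3 and 161 RPKM in iDamko, 88.6 and 190.4 RPKM in Ainv18ko, 44.9 and 58.2 RPKM in iDam, and 54.4 and 55.3 RPKM in BryGFP. The second library of each ko line was well above the first for this gene. Pdhb, the beta subunit gene of the pyruvate dehydrogenase E1 enzyme and the first of the 68 by position, had ratios of 1.70 for ko/iDam and 1.87 for ko/BryGFP. The gene labelled 5730469M10Rik had the largest ko/BryGFP ratio of the group among genes with a ratio, 3.47, and averaged 22.3 ± 9.13 RPKM in ko (SD, n = 4). Of the 6 genes of the group in the stretch, Bnip3l alone passed for iDam against BryGFP. In the whole stretch 11 of 24 genes passed, and 25.3% of all genes tested did. Bnip3l encodes a mitophagy receptor that clears mitochondria from maturing red cells, and it averaged 9.30 ± 0.703 RPKM in ko (SD, n = 4), 3.11 ± 0.428 in iDam and 5.70 ± 0.355 in BryGFP (SD, n = 2 each).

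Of the 7 genes of membrane traffic and transport, 6 were higher in ko. Xpo7, a nuclear transport receptor gene known for a role in red cell nuclear maturation in mouse, averaged 10.2 ± 0.533 RPKM in ko (SD, n = 4), 3.11 ± 0.254 in iDam and 6.49 ± 0.287 in BryGFP (SD, n = 2 each). Of the 4 genes of cytoskeleton and adhesion, all higher in ko, Epb4.9 encodes dematin, a protein of the red cell membrane skeleton. It was at 3.51 and 1.94 RPKM in iDamko, 2.95 and 1.38 RPKM in Ainv18ko, 0.746 and 0.360 RPKM in iDam, and 1.09 and 0.958 RPKM in BryGFP. Dock5, an activator of the GTPase Rac, had a ko/iDam ratio of 3.39, a ko/BryGFP ratio of 1.71 and an iDam/BryGFP ratio of 0.503 (limma adjusted p = 0.0177 for iDam against BryGFP).

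Of the 3 receptor and signalling genes, Fzd3 and Dgkh were higher in ko and Spry2 was lower. Dgkh, which encodes a diacylglycerol kinase, averaged 9.47 ± 0.473 RPKM in ko (SD, n = 4), 3.41 ± 0.262 in iDam and 5.14 ± 0.337 in BryGFP (SD, n = 2 each). The 6 genes put in no functional class were all higher in ko, with a median ratio of 2.43 for ko/iDam and 1.81 for ko/BryGFP. The most abundant of them was Nt5dc2, of a nucleotidase domain family, at 151 and 138 RPKM in iDamko, 154 and 129.5 RPKM in Ainv18ko, 92.7 and 86.0 RPKM in iDam, and 83.0 and 78.2 RPKM in BryGFP. Both iDam libraries lay above both BryGFP libraries for Nt5dc2, unlike the genes of the stretch, and its ko against iDam call was lost under quantile normalization (limma adjusted p = 0.0700). Ccdc25, in the stretch, was at 19.6 and 29.1 RPKM in iDamko, 18.1 and 29.8 RPKM in Ainv18ko, 5.86 and 7.06 RPKM in iDam, and 12.3 and 13.6 RPKM in BryGFP.

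**Figure D5:**
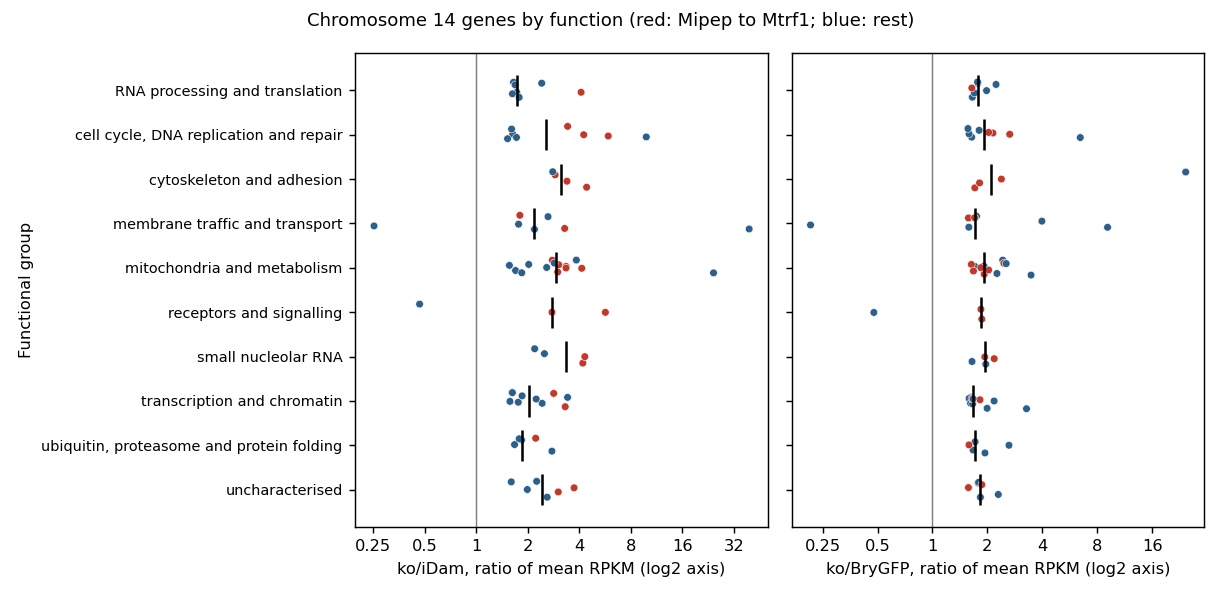
Ratio of mean RPKM of the 68 genes by functional group, as ko/iDam (left) and ko/BryGFP (right), on log2 axes, with 1 point per gene and vertical bars at group medians. Genes of the Mipep to Mtrf1 stretch (red) lie to the right of most others (blue) for ko/iDam, with medians of 3.35 and 1.85 among genes higher in ko, and are mixed with them for ko/BryGFP.

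The 4 snoRNAs, which guide chemical modification of other RNAs, were the short members of the set, and their sequences are given because each lies within a longer gene on the same strand whose reads it could share. SnoRNAs are processed from host introns in mammals. Snord69 and SNORD19B are C/D-box snoRNAs within Gnl3, where they overlap annotated exons of the host. SNORA36 is an H/ACA-box snoRNA in an intron of Kif13b, a kinesin gene that is not among the 622, and SNORA5, also H/ACA, is in an intron of Gtf2f2. Sequences are from the GRCm38 assembly on the gene's strand, with the C and D boxes or the ACA box in capitals.
Snord69 (chr14:31014287-31014366, minus strand): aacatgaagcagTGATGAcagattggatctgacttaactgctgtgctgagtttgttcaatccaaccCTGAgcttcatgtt
SNORD19B (chr14:31015148-31015226, minus strand): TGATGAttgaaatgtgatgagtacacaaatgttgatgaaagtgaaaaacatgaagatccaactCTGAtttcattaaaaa
SNORA36 (chr14:64753918-64754052, plus strand): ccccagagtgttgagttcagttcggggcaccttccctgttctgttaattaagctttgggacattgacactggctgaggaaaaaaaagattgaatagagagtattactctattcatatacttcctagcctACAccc
SNORA5 (chr14:75972486-75972619, minus strand): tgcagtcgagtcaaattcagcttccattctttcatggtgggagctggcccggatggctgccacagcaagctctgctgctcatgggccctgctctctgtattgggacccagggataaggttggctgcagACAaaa

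All 4 snoRNAs were higher in ko as deposited. Under quantile normalization the ko against iDam calls of both snoRNAs in Gnl3 were lost. The log2 differences were then 1.8e-15 for Snord69 and 0.73 for SNORD19B (limma adjusted p = 0.207 for SNORD19B). This normalization sets values by rank within each library, so a gene that keeps its rank loses its difference whatever its RPKM. Both snoRNAs are among the genes of highest level, and the lost call of Snord69 cannot show whether its level differed. The iDam/BryGFP ratio was 0.448 for SNORA5 and 0.519 for SNORA36, which lie in the Mipep to Mtrf1 stretch, and 0.750 for Snord69 and 0.782 for SNORD19B, which lie outside it. SNORA5 was at 192 and 182 RPKM in iDamko, 171 and 203 RPKM in Ainv18ko, 36.7 and 50.1 RPKM in iDam, and 116 and 77.8 RPKM in BryGFP. Its ratio of 0.448 (log2 difference -1.13 ± 0.28 SE, limma adjusted p = 0.0177) stood beside 0.550 for its host Gtf2f2. Gtf2f2 was at 29.9 and 44.5 RPKM in iDamko, 30.4 and 48.4 RPKM in Ainv18ko, 10.8 and 12.3 RPKM in iDam, and 20.3 and 21.7 RPKM in BryGFP. The ko/BryGFP ratio was 1.93 for SNORA5 and 1.82 for Gtf2f2.

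Outside the stretch, SNORD19B was at 759 and 1125 RPKM in iDamko, 797 and 1327 RPKM in Ainv18ko, 227 and 573 RPKM in iDam, and 561 and 462 RPKM in BryGFP. The wt lines overlapped. Snord69 averaged 684 ± 93.2 RPKM in ko (SD, n = 4), 311 ± 103 in iDam and 415 ± 104 in BryGFP (SD, n = 2 each). These were the genes of the set that did not pass for ko against BryGFP, with log2 differences of 0.94 ± 0.43 (SE) for SNORD19B (limma adjusted p = 0.0571) and 0.73 ± 0.32 (SE) for Snord69 (limma adjusted p = 0.0505). Their host Gnl3 passed, with a log2 difference of 0.70 ± 0.23 (SE, limma adjusted p = 0.0150). For ko/BryGFP, Snord69, SNORD19B and Gnl3 had ratios of 1.65, 1.96 and 1.65.

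Spry2 and Slc7a8 were the 2 genes lower in ko. Spry2, an inhibitor of receptor tyrosine kinase signalling, was at 5.25 and 4.75 RPKM in iDamko, 4.26 and 4.39 RPKM in Ainv18ko, 11.2 and 8.77 RPKM in iDam, and 8.63 and 10.9 RPKM in BryGFP. All ko libraries lay below all wt libraries, and the wt lines overlapped. It fell by 0.95 ± 0.18 (SE) on the log2 scale in ko against iDam (limma adjusted p = 0.000901) and by 0.92 ± 0.18 in ko against BryGFP (limma adjusted p = 0.00118). After centring on the genes off chromosome 14, the log2 difference of Spry2 was -0.36 for ko against iDam (limma adjusted p = 0.0769). For ko against BryGFP it was -0.06 (limma adjusted p = 0.801). The genes off chromosome 14 were selected for differing in ko, and 383 of them were lower. Their median shifted by -0.52 for ko minus iDam and -0.85 for ko minus BryGFP. The limma fit centred on those averaging 1 RPKM or more, so the amounts it removed were not exactly these. Centring removes the median shift of genes selected in this way, so it cannot show whether Spry2 fell. Slc7a8, an amino acid transporter gene, was below the level tested, at 0.132 and 0.0547 RPKM in iDamko, 0.106 and 0.0351 RPKM in Ainv18ko, 0.472 and 0.176 RPKM in iDam, and 0.390 and 0.373 RPKM in BryGFP.

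The largest ratios of the chromosome belonged to genes of low level. Cacna2d3, an auxiliary subunit gene of voltage-gated calcium channels, was at 1.297 and 0.993 RPKM in iDamko, 1.12 and 1.63 RPKM in Ainv18ko, 0.0255 and 0.0385 RPKM in iDam, and 0.183 and 0.0940 RPKM in BryGFP. Pcdh9, a protocadherin gene, had the opposite order in the wt lines, at 0.920 and 1.16 RPKM in iDamko, 1.01 and 1.48 RPKM in Ainv18ko, 0.416 and 0.399 RPKM in iDam, and 0.0528 and 0.0408 RPKM in BryGFP. Irg1, the gene of the itaconate-producing enzyme of myeloid cells, was at 0.122 and 0.123 RPKM in iDamko, 0.0601 and 0.135 RPKM in Ainv18ko, listed at 0 in iDam library 1 and at 0.00902 RPKM in library 2, and listed at 0 in both BryGFP libraries. Beyond Mtrf1, 8 protein-coding members covered 9.52% of the 84 annotated protein-coding genes, against 6.85% of 818 before that point. The 5 genes left out by rule count among the annotated genes only, so these are not shares for the whole table. The 8 genes beyond Mtrf1 had a median ko/BryGFP ratio of 2.53 over the 7 with a ratio, and 1 of the 7 was between 1.5 and 2. Clybl, a mitochondrial lyase gene, averaged 3.55 ± 0.601 RPKM in ko (SD, n = 4), 1.75 ± 0.0669 in iDam and 1.4003 ± 0.233 in BryGFP (SD, n = 2 each).

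No chromosome 14 gene passed the test between the ko lines. The median iDamko/Ainv18ko ratio was 1.01 over the 68 genes, with quartiles of 0.963 and 1.06, and it was 1.02 in the Mipep to Mtrf1 stretch. With limma, 0 of 62 genes passed for iDamko against Ainv18ko and 0 had an unadjusted p under 0.05, while 3.61% of all genes tested passed and 5.28% had such a p. Both iDamko libraries lay above both Ainv18ko libraries in 4 of 68 genes (5.88%; 9.32% of all genes of the table) and below them in 0 (11.3% of all genes of the table). In these values iDamko, the derivative of iDam, was near Ainv18ko in the stretch and not near iDam. Every gene of the table had passed the authors' FDR threshold for the 4 ko libraries together against iDam. That selection favours genes in which the ko lines agree and differ from iDam, so these values are a description. The median ko/iDam ratio over the 68 genes was 2.46 with iDamko alone and 2.43 with Ainv18ko alone.

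The difference between the ko effects, iDamko against iDam minus Ainv18ko against BryGFP, was tested in the same model. Ainv18ko derives from Ainv18 and not from BryGFP, and no wild-type Ainv18 library was available. Ainv18ko against BryGFP therefore mixes line and genotype. Written otherwise, the same contrast is iDamko against Ainv18ko minus iDam against BryGFP. It passed for 2 of 62 genes, Pbk and Naa16 (3.23%, against 9.72% of all genes tested), and both differences were positive. It was 1.21 ± 0.29 (SE) on the log2 scale for Pbk (limma adjusted p = 0.0326) and 1.01 ± 0.26 for Naa16 (limma adjusted p = 0.0403). The iDamko against Ainv18ko difference was 0.16 for Pbk and 0.07 for Naa16. Most of each value thus restates the iDam against BryGFP difference, -1.05 for Pbk and -0.94 for Naa16. Neither call held after centring, with limma adjusted p of 0.0662 for Pbk and 0.0590 for Naa16. Over the leave-one-out fits, 0 or 1 gene passed: Pbk passed without Ainv18ko library 2, and 0 genes passed without any other single library.

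Promoter sequence was compared with the RUNX core motif, TGTGGT, on either strand. RefSeq promoter windows, from 250 bases before to 50 bases after the start, were matched for 47 of the 68 genes (56 windows, GRCm38.p6). The motif stood in 4 of the 56 windows (7.14%), against 16.8% of 32851 windows of the whole RefSeq table. The 4 windows are printed because they are all that held it, with the motif or its reverse complement in capitals.
Apex1 (chr14:50924699-50924998, plus strand): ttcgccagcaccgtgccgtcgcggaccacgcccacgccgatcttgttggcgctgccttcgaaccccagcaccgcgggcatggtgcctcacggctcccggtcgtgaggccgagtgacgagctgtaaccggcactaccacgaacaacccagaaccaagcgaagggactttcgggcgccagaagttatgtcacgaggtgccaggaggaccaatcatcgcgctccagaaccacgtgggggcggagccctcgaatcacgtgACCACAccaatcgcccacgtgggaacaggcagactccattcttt
Psmb5 (chr14:54617946-54618245, minus strand): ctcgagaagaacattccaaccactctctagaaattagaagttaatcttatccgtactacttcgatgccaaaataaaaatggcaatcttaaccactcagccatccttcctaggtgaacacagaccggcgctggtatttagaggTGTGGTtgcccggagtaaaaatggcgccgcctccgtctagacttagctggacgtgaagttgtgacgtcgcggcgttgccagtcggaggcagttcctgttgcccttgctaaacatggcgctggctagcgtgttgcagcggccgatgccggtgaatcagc
Mipep (chr14:60784316-60784615, plus strand): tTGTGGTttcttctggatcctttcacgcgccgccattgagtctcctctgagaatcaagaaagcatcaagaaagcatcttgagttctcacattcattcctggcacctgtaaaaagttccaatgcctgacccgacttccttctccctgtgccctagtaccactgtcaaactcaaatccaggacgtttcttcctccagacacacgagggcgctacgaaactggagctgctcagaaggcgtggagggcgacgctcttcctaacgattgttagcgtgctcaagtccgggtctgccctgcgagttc
Zic5 (chr14:122465609-122465908, minus strand): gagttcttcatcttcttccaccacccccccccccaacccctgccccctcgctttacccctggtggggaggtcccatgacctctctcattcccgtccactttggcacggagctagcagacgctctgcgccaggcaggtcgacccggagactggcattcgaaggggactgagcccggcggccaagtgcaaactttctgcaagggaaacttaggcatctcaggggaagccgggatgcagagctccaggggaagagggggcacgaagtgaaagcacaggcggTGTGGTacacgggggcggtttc
These 4 genes were higher in ko, with ko/BryGFP ratios of 1.80 for Apex1, 1.71 for Psmb5, 1.92 for Mipep and 3.27 for Zic5. A match in a window this short is a description and not a binding site, and the matched windows of Spry2 and Slc7a8 did not hold these letters.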

How the data were processed

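RNA from 8 libraries was depleted of ribosomal RNA and turned into SOLiD total RNA libraries, per the labels' protocols. Per the submitters' processing notes, edgeR and the mm9 build were used, while the aligner, the counting and its strand setting are not given in the sources used here. A single deposited table holds 1 value per gene and library with no unit in its header. These deposited values were taken as RPKM because the gene length they imply from the authors' CPM correlated with annotated exon length over 352 genes (Pearson r = 0.911, across genes, which are not replicates). The authors also deposited p-values, FDRs, log2 folds and mean levels on a log2 CPM scale for the 4 ko libraries against iDam and against BryGFP, with the log2 fold running wt over ko.

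Columns name lines and not single samples, so each was assigned to its line by name, Ainv18ko being the knockout without the Dam tag, and library numbers are those of the columns. The 4 ko columns stand in the table again with identical values, and these 4 repeats were not used. Genes were placed by Ensembl ID in GENCODE M21 (GRCm38), so no mm9 coordinates were used or converted.

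Ratios are of mean RPKM. Tests used limma 3.58.1 (R 4.3.3) on log2(RPKM + 1), with 1 mean per line, 1 shared spread and its trend option, over the 360 genes that averaged 1 RPKM or more, with Benjamini-Hochberg adjustment at 0.05. The pseudocount shrinks the differences of weakly expressed genes. Count tests named in the plan were not used, since the values were not counts. The fit was tested on simulated data. Depth was read from whole-read steps of small RNAs within 0.06 of a read, covers counting only, and for BryGFP library 1 is the smallest step that its values allow. Where nothing ties libraries to separate cultures beyond the design's wording, p-values measure the spread between these libraries.

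The 68 genes, the functional groups and the stretch were chosen with earlier results of these data known. Genes were named by rule: the genes lower in ko, the extremes of each ratio among genes averaging 1 RPKM or more, genes called between lines of 1 genotype, the highest levels overall and per functional group, and those at the ends of the chromosome or at changes between windows. Mettl3, Mphosph8, Oxnad1, Rnaseh2b, Bnip3l, Mtrf1, Zic5 and Cacna2d3 fall outside this rule and were chosen after their values were seen. Ecd, Chchd1, Mudeng, Bin3, Esd, Abcc4 and A2ld1 fall under the rule and are not described individually. Alternatives covered the pseudocount, the filter, quantile normalization, centring on genes off chromosome 14, the library number as a block, and leaving out each library. In the limma fits, centring used the genes off chromosome 14 that averaged 1 RPKM or more.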

Additional observations from a re-analysis of the deposited data

Results flagged for a closer look

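The difference between the ko effects, iDamko against iDam minus Ainv18ko against BryGFP, passed the limma test for 2 chromosome 14 genes. Both lie in the Mipep to Mtrf1 stretch. For Pbk the difference was 1.21 on the log2 scale (limma adjusted p = 0.0326), and for Naa16 it was 1.01 (limma adjusted p = 0.0403). Both genes were at similar levels in iDamko and Ainv18ko and lower in iDam than in BryGFP. The result therefore mostly restates the difference between the wt lines. Ainv18ko does not derive from BryGFP, so Ainv18ko against BryGFP mixes line and genotype. Among the 4 ko libraries, 0 of 54 named genes had a library set apart from the others by Dixon's test, where chance sets apart about 1 in 20 groups. That rate is for unrelated values, while in both ko lines the second library was the higher for most chromosome 14 genes. The count of 0 therefore does not show that the libraries were alike.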

How the results depend on the processing

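The table was selected for differences between ko and wt, and 383 of its other genes are lower in ko, so scaling on those genes moves the groups apart. The median log2 RPKM of genes off chromosome 14 differed by -0.52 for ko minus iDam, -0.85 for ko minus BryGFP and -0.33 for iDam minus BryGFP. Centring on these genes gave median ratios of 3.51 for ko/iDam, 3.26 for ko/BryGFP and 1.07 for iDam/BryGFP over the 68 genes, the last on the other side of 1, and quantile normalization gave 2.31 for ko/BryGFP and 1 for iDam/BryGFP. Ratios of mean RPKM plus 1 gave 2.06 for ko/iDam and 0.911 for iDam/BryGFP. Alternatives for the stretch were added after seeing the data. Inside it, the median iDam/BryGFP ratio was 0.598 with RPKM plus 1, 0.591 with quantile normalization and 0.673 with centring. Outside it, the median was 1.17 with quantile normalization and 1.26 with centring, and 0.903 to 1.07 when 1 library was left out. The inside median over the outside median was 0.543 as reported, 0.508 with quantile normalization and 0.536 with centring.

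Genes called for iDam against BryGFP numbered 11 as reported, 3 with centring and 4 to 13 when 1 library was left out, 4 or 5 of these without a wt library. Genes called for ko against BryGFP numbered 37 to 61 when 1 library was left out, with 37 without BryGFP library 1, and for ko against iDam 46 to 62, with 46 without iDam library 1. For iDamko against Ainv18ko, 0 genes were called under all settings run. The difference between the ko effects, a result added after seeing the data, was called for 4 genes with a pseudocount of 0.1 RPKM, 0 with centring, and 0 to 1 when 1 library was left out. The cause of these changes was not tested, beyond fewer libraries in the leave-one-out fits.

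The correlation of same-numbered deviations was 0.695 between the ko lines, 0.409 for iDamko with iDam and 0.516 for Ainv18ko with iDam, but -0.0307, 0.00784 and -0.203 for iDamko, Ainv18ko and iDam with BryGFP. Not every pair exceeded 0.1, so the numbers were not taken as pairing the samples. With the number as a replicate block, 19 genes were called for iDam against BryGFP, 18 of them in the stretch, 62 for ko against BryGFP, and 7 for the difference of the ko effects.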
